A study of Mus musculus with 12 samples.

Results

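Galectins are lectins that bind galactose-containing sugars on cell-surface and matrix glycoproteins, and TIM-3, encoded by Havcr2, is an inhibitory receptor of T cells and myeloid cells for which galectin-9 is a described ligand. The set described here holds 10 genes, the galectins Lgals1, Lgals2, Lgals3, Lgals4, Lgals7, Lgals8, Lgals9 and Lgals12, the galectin-related gene Lgalsl, and Havcr2. Members were found by matching the RefSeq accession in a probe set's name to a mouse symbol, and they are 10 of the 909 genes so named among 1246 probe sets. Each had 1 probe set, so the rule of taking the brightest never had to choose.

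Mouse melanoma tumours were profiled on 12 Affymetrix arrays, 3 in each of 4 groups that cross the tumour line with the host's genotype. The lines were Tm1N3, labelled as expressing galectin-3, and Tm1G3, labelled as galectin-3 silenced. The design text describes a line that had silenced the gene and a galectin-3 coding plasmid. The hosts were syngeneic wild-type mice or galectin-3 knockout mice (Gal3 -/-), so that the 4 groups were Tm1N3 and Tm1G3 tumours of wild-type mice and Tm1N3 and Tm1G3 tumours of knockout mice. No age is given in the labels, the promoter of the plasmid is not named, and how many clones each line represents was not given in the sources used here. The labels do not say whether replicates were separate animals, so p-values measure the spread between these samples, part of which may be technical.

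Values are log2 intensities from RMA, a method that corrects background, equalizes the arrays' distributions and summarizes each gene's probes. Over all probe sets they ran from 2.14 to 13.9, the array medians spanned 0.0945, and no pair of arrays held identical values. Only 2 of 11 melanocyte markers, Kit and Mcam, were named on the array, and whether the tissue carries melanoma cells was not tested. In Tm1N3 tumours, averaged over hosts, Kit was lower by a log2 difference of -0.99 ± 0.15 (moderated SE, limma adjusted p = 0.00379) while Mcam was higher by 0.66 ± 0.15 (limma adjusted p = 0.0336). The call of Mcam was lost with the replicate block (0.0572 fixed, 0.0674 random) and in 9 of 12 fits that each left out 1 array, and that of Kit in none of these. A level is the array's brightness, not a molecule count, and levels are not set against each other between genes. An effect was called when its p from limma, adjusted by the Benjamini-Hochberg method over all 1246 probe sets, was under 0.05.

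By structure, galectins fall into prototype members with one carbohydrate-recognition domain (Lgals1, Lgals2 and Lgals7), the chimera member galectin-3, whose single domain carries a long flexible tail, and tandem-repeat members with a pair of domains (Lgals4, Lgals8, Lgals9 and Lgals12). Their affinity for a glycoprotein depends on how its glycans are branched, lengthened with N-acetyllactosamine and capped with sialic acid. In tumours, galectin-1 and galectin-9 are known for effects on T cells, and galectin-3 for effects on adhesion, macrophages and vessels.

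The data turn on 4 genes, the 3 whose level differed between the tumour lines and the reported TIM-3 ligand, and their upstream sequences are shown to let their base composition be compared. Windows of 250 bases ending just before the transcription start were taken from RefSeq's tables for GRCm38.p6, which hold 8 of the 10 members. Capitals mark matches, on either strand, to 7 motifs: the E-box CACGTG, AP-1 TGANTCA, GAS TTCNNNGAA, ISRE (GAAA and GAAA with any 2 bases between), kappaB (GGG and CC with any 5 bases between), the GC box GGGCGG and the TATA box TATAAA. Over 32851 such windows of all genes these were present in 6.02%, 6.75%, 7.02%, 2.98%, 45.8%, 32.7% and 12.4% in that order. Lgals7, Lgalsl, Havcr2 and Lgals9 have these windows, each written 5′ to 3′ on the gene's own strand.
Lgals7, chr7:28864136-28864385, plus strand: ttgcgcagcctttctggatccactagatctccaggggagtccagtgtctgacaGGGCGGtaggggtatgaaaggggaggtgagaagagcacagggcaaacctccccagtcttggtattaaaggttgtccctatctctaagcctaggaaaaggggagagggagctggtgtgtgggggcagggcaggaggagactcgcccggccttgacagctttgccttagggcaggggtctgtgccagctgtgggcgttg
Lgalsl, chr11:20831109-20831358, minus strand: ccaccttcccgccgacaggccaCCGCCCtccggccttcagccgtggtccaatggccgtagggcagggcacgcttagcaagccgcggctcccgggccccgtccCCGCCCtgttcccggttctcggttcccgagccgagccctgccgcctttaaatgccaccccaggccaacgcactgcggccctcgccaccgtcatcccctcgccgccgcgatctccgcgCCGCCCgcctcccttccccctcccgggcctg
Havcr2, chr11:46454681-46454930, plus strand: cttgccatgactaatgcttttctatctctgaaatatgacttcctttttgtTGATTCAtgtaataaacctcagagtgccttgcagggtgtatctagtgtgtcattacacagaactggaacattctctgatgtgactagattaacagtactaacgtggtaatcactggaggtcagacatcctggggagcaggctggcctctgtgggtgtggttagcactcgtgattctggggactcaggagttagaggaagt
Lgals9, chr11:78984925-78985174, minus strand: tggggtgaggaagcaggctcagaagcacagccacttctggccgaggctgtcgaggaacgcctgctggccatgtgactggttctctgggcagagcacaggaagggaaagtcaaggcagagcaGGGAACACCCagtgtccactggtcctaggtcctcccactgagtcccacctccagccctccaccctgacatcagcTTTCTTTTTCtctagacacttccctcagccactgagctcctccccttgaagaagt

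The window of Lgalsl was the richest in CpG among the 8, with 30 CpG and 74.4% GC, where the median over all windows was 6 CpG and 52.4% GC. It held 3 GC boxes, at 228 to 223, 148 to 143 and 31 to 26 bases before the start. The Havcr2 window was poor in both, with 2 CpG and 44.8% GC, and its 1 match was an AP-1 motif at 200 to 194. That of Lgals7 had 5 CpG and 58.8% GC with 1 GC box at 197 to 192. In Lgals9, whose window had 3 CpG and 58.4% GC, an ISRE match lay at 55 to 46 and a kappaB match, a motif that 45.8% of all windows hold, at 129 to 120. The windows of Lgals2 and Lgals4 held none of the 7 motifs, and those of Lgals3 and Lgals8 held 4 and 2 matches, of which the kappaB matches of Lgals3 partly overlap. A match is a description of the letters, and no binding was measured here.

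The tumour line was the contrast that separated these genes. Averaged over hosts, Havcr2 and Lgalsl were lower and Lgals7 higher in Tm1N3 than in Tm1G3 tumours, by 1.32-fold, 1.44-fold and 1.55-fold. Those 3 of 10 members (1 higher, 2 lower) stand against 53 of 1246 probe sets on the array, or 4.25%, of which 1.28% were higher and 2.97% lower. The median size of the difference was 0.35 on the log2 scale over the members and 0.0655 over all probe sets, and the medians of the signed difference were -0.02 and 0.0027. Size without sign also grows with the spread between arrays. The members' sizes include uncalled ones with wide errors, Lgals9 at -0.48 ± 0.21, Lgals3 at 0.46 ± 0.23 and Lgals4 at 0.29 ± 0.15 (SE). At an unadjusted p under 0.05 there were 5 members, Lgals1 and Lgals9 joining the 3 called ones, where 16.4% of all probe sets passed. With the quantile normalization repeated on the deposited table, the array's calls split into 29 higher and 28 lower in place of 16 and 37, and of the members Havcr2 alone stayed called.

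**Figure D1:**
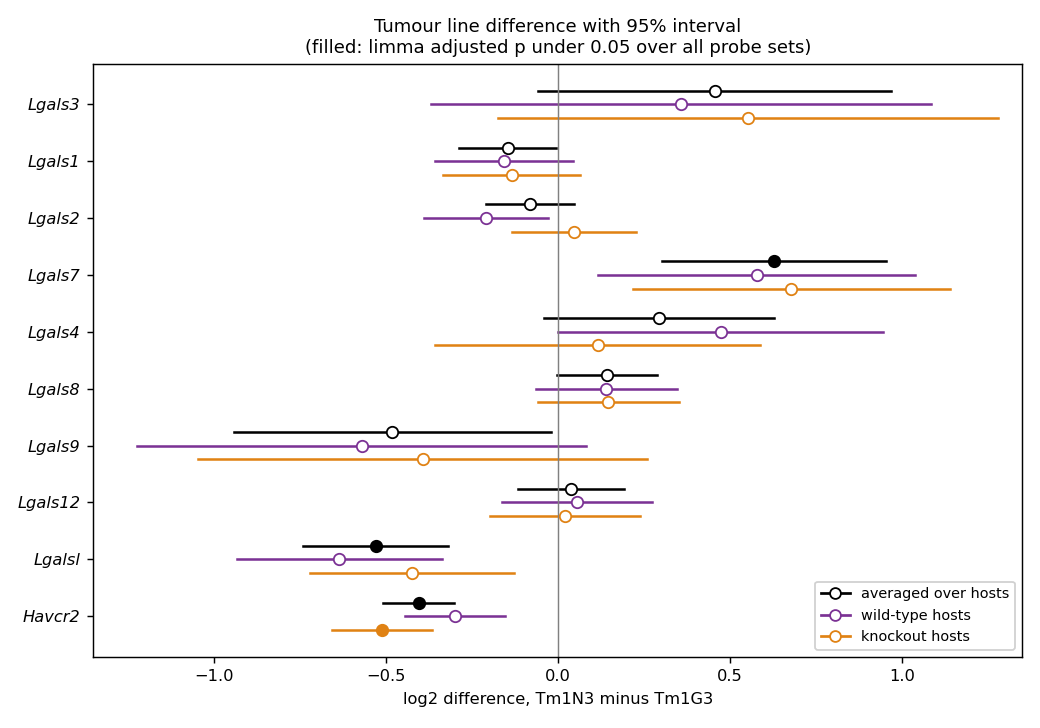
Log2 difference between Tm1N3 and Tm1G3 tumours for each of the 10 members (horizontal axis, log2 units), averaged over hosts and within each host, with 95% intervals from limma and filled points for an adjusted p under 0.05. Havcr2 and Lgalsl lie left of 0 and Lgals7 right of it in all 3 comparisons, while the intervals of Lgals3 include 0 in each.

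Galectin-3, the gene by which the groups are named, did not separate them on these arrays. Lgals3 read 9.80, 9.72 and 10.39 in Tm1N3 tumours of wild-type mice and 9.35, 9.69 and 10.55 in Tm1N3 tumours of knockout mice. In Tm1G3 tumours it read 9.52, 9.33 and 9.99 in wild-type mice and 9.15, 9.80 and 8.98 in knockout mice. The highest arrays were the Tm1N3 arrays numbered 3 in both hosts, the lowest were 2 of the Tm1G3 arrays from knockout mice, and all 4 groups overlapped.

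The averaged line difference of Lgals3 was 0.46 ± 0.23 (SE, 95% interval -0.06 to 0.97, limma adjusted p = 0.376), and a two-sided exact permutation test within hosts gave p = 0.1 over 400 arrangements, where the smallest possible is 0.005. Within wild-type and knockout mice the line differences were 0.36 and 0.55 (exact permutation p = 0.3 in each, smallest possible 0.1). The host differences, knockout minus wild-type, were -0.11 in Tm1N3 and -0.30 in Tm1G3 tumours (exact permutation p = 0.8 and 0.4). The suffix of its probe set stands for probes that may also match related sequences, and its place with respect to the deleted stretch of the host gene or to the plasmid's insert was not given in the sources used here. The level of Lgals3 therefore does not check the labels. In bulk tumours, fewer cells of a type and less RNA per cell cannot be told apart.

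Galectin-3 is a gene of macrophages as well as of tumour cells. Summed macrophage and fibroblast markers were high on the 2 arrays with the most Lgals3, but did not follow it on every array. The 10 of 18 macrophage and monocyte markers named on the array, summed on the linear scale, ranged from 888.9 to 1781.2 in Tm1N3 tumours of wild-type mice and from 619.4 to 2167.1 in those of knockout mice. They ranged from 978.6 to 2096.7 in Tm1G3 tumours of wild-type mice and from 1125.1 to 1517.5 in those of knockout mice. Replicate 3 of Tm1N3 in knockout mice, which had the highest Lgals3, was also first of 12 in the macrophage sum and in the sum of 6 fibroblast markers, and replicate 3 of Tm1N3 in wild-type mice ranked 3 and 2. Replicate 1 of Tm1G3 in knockout mice ranked 4 and 3 in those sums but 11 in Lgals3. Of the macrophage list only Clec4e lay in the lowest 25% of probe sets, under 4.22.

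Across the 12 arrays, as a description of samples that share these libraries, r between Lgals3 and the log2 macrophage sum was 0.452, or 0.728 after each group's mean was taken out. The values against the fibroblast sum were 0.539 and 0.704. These values of r were not computed without the 2 Tm1N3 arrays numbered 3. None of the 10 macrophage markers passed in the averaged line comparison, 9 of the 10 were lower in Tm1N3 tumours and their median difference was -0.31, the opposite sign to that of Lgals3. Without the 2 Tm1N3 arrays numbered 3, a choice made after seeing the data, the averaged line difference of Lgals3 fell to 0.18, which is lower by construction since they held its highest values. The part of these cells in the level of Lgals3 was not tested.

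**Figure D2:**
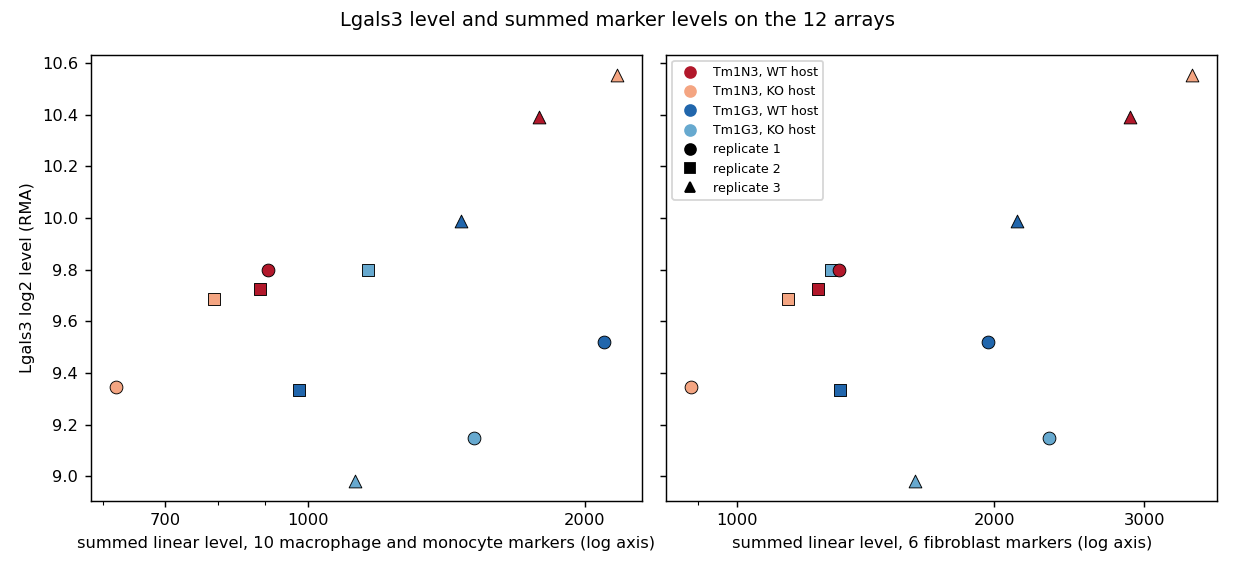
Lgals3 level (vertical axis, log2 intensity) against the summed level of 10 macrophage and monocyte markers and of 6 fibroblast markers (horizontal axes, linear sum on a log axis), 1 point per array, coloured by group and shaped by replicate number. The 2 Tm1N3 arrays numbered 3, at 10.39 and 10.55, lie highest in both panels.

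Among prototype galectins, Lgals7, an epithelial and keratinocyte galectin also described in melanoma cells, was the one that differed between lines. Lgals7 read 7.75, 7.81 and 7.56 in Tm1N3 tumours of wild-type mice and 8.54, 8.25 and 7.53 in those of knockout mice. Tm1G3 tumours gave 7.04, 7.05 and 7.29 in wild-type mice and 7.29, 7.52 and 7.48 in knockout mice. Every Tm1N3 array lay above every Tm1G3 array, narrowly, since the lowest Tm1N3 value of 7.53 and the highest Tm1G3 value of 7.52 are both from knockout mice. Lines did not overlap for 2 members, Lgals7 and Havcr2, and for 3.29% of all probe sets.

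The averaged line difference of Lgals7 was 0.63 ± 0.15 (SE, 95% interval 0.30 to 0.95, limma adjusted p = 0.0369). With replicate number as a block, the same difference no longer passed (limma adjusted p = 0.0593 with a fixed block, 0.075 with a random block within a line). The fixed block gives a number the same effect in both lines, and the random block joins wild-type and knockout tumours of a line. Leaving out 1 array ended the call for 10 of the 12 arrays, with adjusted p up to 0.0956, so that it held only without replicate 1 (difference 0.52, adjusted p = 0.0492) or replicate 3 (0.77, adjusted p = 0.00129) of Tm1N3 in knockout mice, and without both Tm1N3 arrays numbered 3 it was 0.81 (adjusted p = 0.0026). Within hosts the differences were 0.58 ± 0.21 in wild-type and 0.68 ± 0.21 in knockout mice (limma adjusted p = 0.24 and 0.223). None of 12 keratinocyte markers was among the named probe sets, and the probe set of Lgals7 also carries the shared-probe suffix.

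Lgals1, which codes for a secreted galectin of stroma, endothelium and tumour cells, varied little. It read 12.74, 12.89 and 12.98 in Tm1N3 tumours of wild-type mice, 12.93, 12.78 and 12.85 in those of knockout mice, 12.92, 13.10 and 13.06 in Tm1G3 tumours of wild-type mice and 12.83, 13.03 and 13.10 in those of knockout mice. The range over 12 arrays was narrow and the lines overlapped, with a difference of -0.15 ± 0.06 (SE, limma adjusted p = 0.284). Repeating the quantile normalization brought it to -0.03, since that step sets a value by its rank within the array, and the rank of this probe set was 4 or 5 on every array. Lgals2, a galectin mostly described in the gut, read from 5.10 to 5.53. Its difference between lines was -0.08 ± 0.06 averaged over hosts (limma adjusted p = 0.589), -0.21 ± 0.08 in wild-type mice and 0.05 ± 0.08 in knockout mice.

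Among tandem-repeat galectins none passed. Lgals9, the ligand described for TIM-3, read 8.21, 7.70 and 8.01 in Tm1N3 tumours of wild-type mice and 8.44, 8.07 and 8.34 in those of knockout mice. In Tm1G3 tumours it read 7.83, 8.53 and 9.26 in wild-type mice and 8.63, 8.49 and 8.91 in knockout mice. The 3 wild-type Tm1G3 arrays spanned more than any other group (SD 0.71, against 0.26, 0.19 and 0.21), and their lowest, replicate 1, lay below 5 of the 6 Tm1N3 arrays.

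The averaged line difference of Lgals9 was -0.48 ± 0.21 (SE, 95% interval -0.94 to -0.02, limma adjusted p = 0.276). It passed the threshold in 1 of 12 fits that each left out 1 array, the one without replicate 1 of Tm1G3 in wild-type mice (-0.66, limma adjusted p = 0.0382). Without replicate 3 of the same group it was -0.30 (limma adjusted p = 0.413), and within wild-type mice these omissions moved it from -0.57 to -0.92 and to -0.21. Within knockout mice the lines did not overlap, at -0.39 ± 0.29 (limma adjusted p = 0.8). Its probe set too has the shared-probe suffix.

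Lgals8, a galectin of damaged vesicles and cell adhesion, kept within 7.85 to 8.27 over the 12 arrays, and its averaged line difference was 0.14 ± 0.07 (SE, limma adjusted p = 0.308). Lgals4, chiefly a galectin of intestinal epithelium, read 7.14, 6.42 and 6.43 in Tm1N3 tumours of wild-type mice, against 6.26, 6.31 and 6.01 in Tm1G3 tumours of the same hosts. Those groups did not overlap, yet the difference of 0.47 ± 0.21 did not pass (limma adjusted p = 0.381), and without the array at 7.14 it was 0.23. In knockout mice, where the values were 6.35, 6.78 and 6.44 against 6.75, 6.26 and 6.21, it was 0.12 ± 0.21. Lgals12, an adipocyte galectin, was the 1 member in the lowest 25% of probe sets, from 3.31 to 3.76, with an averaged line difference of 0.04 ± 0.07 (SE, limma adjusted p = 0.882). None of 8 adipocyte markers was named.

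Lgalsl codes for a protein with a galectin fold that is not known to bind lactose. It read 7.16, 7.18 and 7.06 in Tm1N3 tumours of wild-type mice and 7.39, 7.24 and 6.81 in those of knockout mice. In Tm1G3 tumours it read 7.78, 7.78 and 7.76 in wild-type mice and 7.38, 7.60 and 7.74 in knockout mice. Wild-type hosts separated the lines with no overlap, and in knockout mice a Tm1N3 array at 7.39 and a Tm1G3 array at 7.38 met.

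The averaged line difference of Lgalsl was -0.53 ± 0.09 (SE, 95% interval -0.74 to -0.32, limma adjusted p = 0.0102), or 1.44-fold (1.25 to 1.67). It passed in all 12 fits that each left out 1 array (adjusted p from 0.00623 to 0.0356) and with either replicate block, and did not pass after repeated quantile normalization (-0.49, adjusted p = 0.0903). In wild-type mice it was -0.63 ± 0.13, 1.55-fold, and fell just short (limma adjusted p = 0.0561), while in knockout mice it was -0.42 ± 0.13 (adjusted p = 0.248), and -0.26 without replicate 3 of Tm1N3 there (adjusted p = 0.413).

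**Figure D3:**
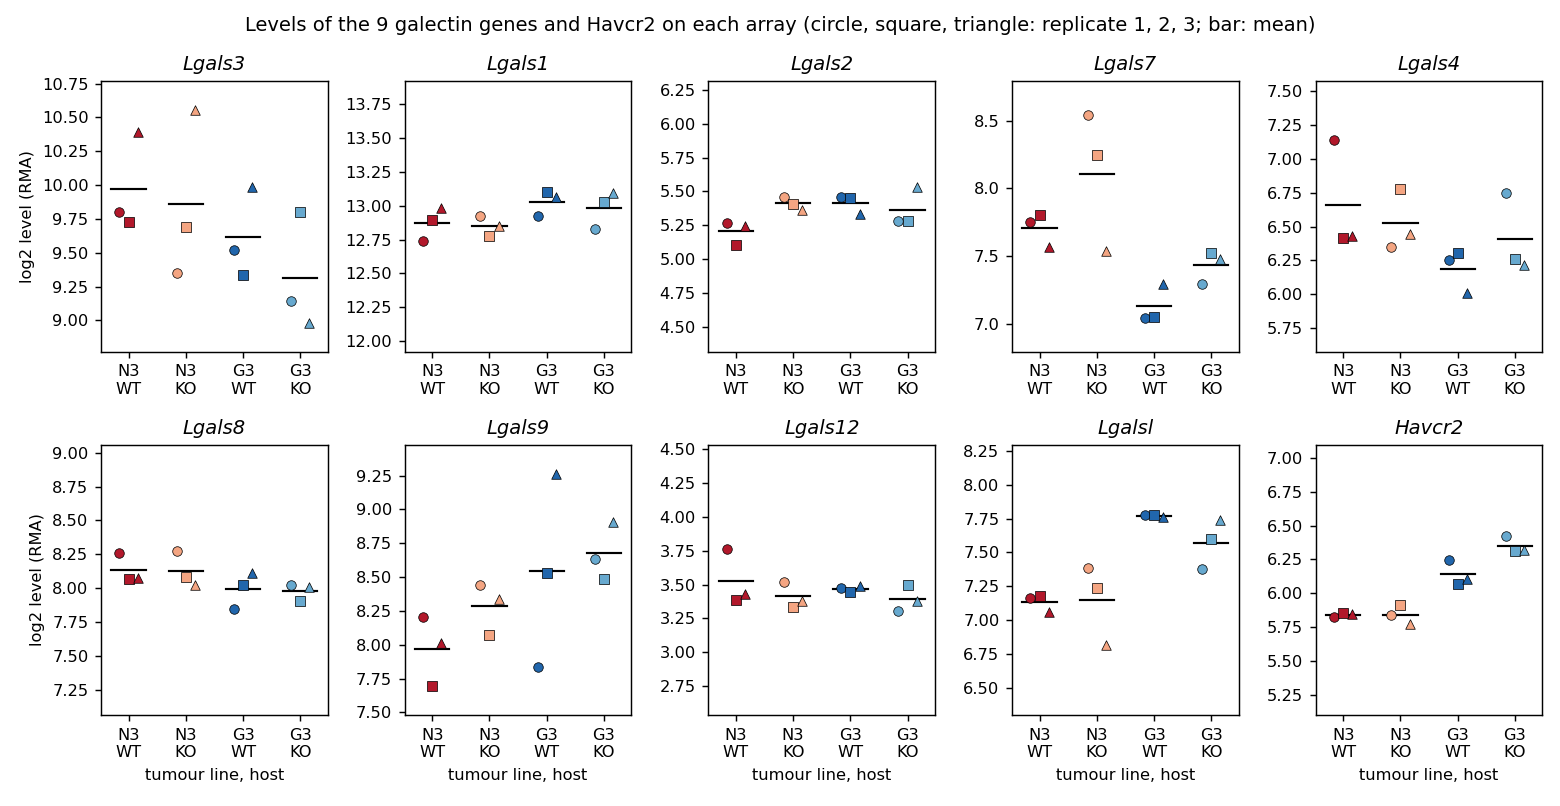
Level of each of the 10 members on each of the 12 arrays (log2 intensity), by group, with group means. Havcr2 and Lgalsl are higher and Lgals7 lower in the Tm1G3 groups, whereas the 4 groups of Lgals3 overlap.

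The receptor gave the clearest separation of the set. Havcr2 read 5.82, 5.85 and 5.85 in Tm1N3 tumours of wild-type mice and 5.84, 5.91 and 5.77 in those of knockout mice. In Tm1G3 tumours it read 6.25, 6.07 and 6.10 in wild-type mice and 6.43, 6.31 and 6.32 in knockout mice. All 6 Tm1G3 arrays lay above all 6 Tm1N3 arrays, and in Tm1G3 tumours the 3 arrays from knockout mice lay above the 3 from wild-type mice.

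As group means, Havcr2 stood at 5.84 ± 0.015 (SD, n = 3 throughout) and 5.84 ± 0.07 in the wild-type and knockout mice with Tm1N3 tumours, and at 6.14 ± 0.10 and 6.35 ± 0.06 in those with Tm1G3 tumours. In ascending order the 2 Tm1N3 groups came first and did not differ beyond their spread. Tm1G3 in wild-type mice came next and Tm1G3 in knockout mice was highest, but this host difference did not pass (0.21 ± 0.07, SE, limma adjusted p = 0.752). The averaged line difference was -0.40 ± 0.05 (SE, 95% interval -0.51 to -0.30, limma adjusted p = 0.00134), or 1.32-fold (1.23 to 1.42). It passed in all 12 fits that each left out 1 array, with adjusted p from 0.00235 to 0.00515, and under repeated quantile normalization at -0.34 (adjusted p = 0.0052).

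Within knockout mice Havcr2 was lower in Tm1N3 tumours by 1.42-fold, at -0.51 ± 0.07 (SE, 95% interval -0.66 to -0.36, limma adjusted p = 0.00508). It was the 1 member called there, where 0.722% of all probe sets were called and 0.562% were lower. With only these 2 groups in the fit its limma adjusted p was 0.0605. Without replicate 3 of Tm1N3 in knockout mice Lgals7 was called there too (0.97, limma adjusted p = 0.00768). Lines did not overlap in knockout mice for 4 members, Lgals7, Lgals8, Lgals9 and Havcr2, and for 13.7% of all probe sets.

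Within wild-type mice the difference of Havcr2 was -0.30 ± 0.07, 1.23-fold, and did not pass (limma adjusted p = 0.0565). No member was called by limma in wild-type mice, where 0.883% of all probe sets were, and 5 had an unadjusted p under 0.05 against 13.1% of the array. Lgalsl was called there without any 1 of 3 arrays, all from knockout mice, which are replicate 1 of Tm1G3, replicate 1 of Tm1N3 and replicate 3 of Tm1N3 (adjusted p = 0.0436, 0.0407 and 0.0136), and Lgals7 without the last of these (adjusted p = 0.0347). The lines did not overlap in wild-type mice for Lgals2, Lgals4, Lgals7, Lgalsl and Havcr2, 5 members, where 16.9% of all probe sets did not. The line difference of Havcr2 was larger in knockout than in wild-type mice by -0.21 ± 0.09, a difference that did not pass its own test (limma interaction, adjusted p = 0.996).

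TIM-3 is carried by T cells, NK cells, dendritic cells and macrophages, and markers of these cells are given for that reason. Of 19 T and NK cell markers 6 were named, and their linear sum ran from 288.2 to 422.0 in Tm1N3 and from 414.2 to 614.9 in Tm1G3 tumours. Ccl5 alone made up 76.2% to 81.2% of that sum in Tm1N3 and 82.4% to 88.1% in Tm1G3 tumours. Without it the other 5 summed to between 68.5 and 81.7 in Tm1N3 and between 72.9 and 90.6 in Tm1G3 tumours, and Ifng, Klrk1 and Il2ra lay in the lowest 25% of probe sets. The chemokine Ccl5, made by T cells and NK cells and by other cells too, was lower in Tm1N3 tumours by -0.65 ± 0.12 (SE, limma adjusted p = 0.0113), while Cd2, a T and NK cell surface protein, differed by -0.07 and was not called. The median over the 6 was -0.05.

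Macrophage sums ran from 619.4 to 2167.1 in Tm1N3 and from 978.6 to 2096.7 in Tm1G3 tumours. The macrophage marker Adgre1 differed by -0.54 ± 0.43 and Cx3cr1 by -0.53 ± 0.24, and neither was called. The 7 named dendritic cell markers summed to between 236.9 and 295.0 in Tm1N3 and between 221.3 and 289.4 in Tm1G3 tumours, with a median difference of -0.01, none called, and Xcr1 and Clec4a2 in the lowest 25%. Of 4 neutrophil and 3 B cell markers none was called. Among 6 endothelial markers Icam2 was lower (-0.40 ± 0.08, limma adjusted p = 0.0215), though not without any 1 of 3 arrays from wild-type mice (adjusted p up to 0.0558) or with the random replicate block (0.0545), and among 6 fibroblast markers Fbln5 was higher (0.76 ± 0.12, limma adjusted p = 0.00379). The part of any of these cells in the level of Havcr2 was not tested.

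The other genes of the TIM family on the array stayed near 0 difference. Havcr1, which codes for TIM-1, differed by 0.01 ± 0.05 between lines averaged over hosts, Timd4, the phosphatidylserine receptor TIM-4, by 0.005 ± 0.07, and Timd2 by -0.01 ± 0.05. All of them were dim: Havcr1 (mean 3.91) and Timd4 (3.09) lay in the lowest 25% of probe sets, under 4.22, and Timd2 (4.52) near it. Whether low signal hid a difference in them was not tested. With Havcr2 and Lgals9 they make 5 measured genes of a list of 9 TIM family members and TIM-3 partners, of which Havcr2 alone was called. It was also the 1 gene named of a list of 10 immune checkpoints.

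Ligand and receptor were set against each other within each line, since the values of Havcr2 form 2 separate clusters, 5.77 to 5.91 in Tm1N3 and 6.07 to 6.43 in Tm1G3 tumours. Over 6 Tm1N3 arrays, Pearson's r between Lgals9 and Havcr2 was -0.438 and Spearman's rho -0.657 (two-sided exact permutation p = 0.3583 and 0.1750). Over 6 Tm1G3 arrays they were -0.197 and 0.0857 (exact permutation p = 0.7375 and 0.9194). Adjusted over 7 relations, which leave out those of Havcr2 pooled over the lines, p for r was 0.7914 and 0.9528, and for rho 0.5376 and 0.9194. Without the 2 arrays farthest from the median of Lgals9, r was -0.810 and 0.327. After group means were taken out, r was -0.561 over the Tm1N3 arrays, -0.620 over the Tm1G3 arrays and -0.601 over all 12, a description with no test. No relation between them passed a test with 6 arrays a line. The planned test pooled over 12 arrays gave r of 0.434 (permutation p = 0.1586, unadjusted), a value that also holds the difference between lines.

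Between Lgals3 and Lgals9 over all 12 arrays, r was -0.241 and rho -0.322 (permutation p = 0.4522 and 0.3072, adjusted 0.7914 and 0.5376), and r was -0.105 without the 2 farthest arrays. Within the lines r was -0.021 in Tm1N3 and 0.128 in Tm1G3 tumours (exact permutation p = 0.9750 and 0.8167). Without the 2 farthest arrays these were -0.630 and -0.311, and no relation between these galectins passed a test at this number of arrays. Between Lgals3 and Havcr2 r was -0.524 and -0.467 within the lines (exact permutation p = 0.3069 and 0.3569, adjusted 0.7914 in each). It was 0.110 and -0.0922 without the 2 farthest arrays, and -0.530 and -0.207 after group means were taken out. Pooled over the 12 arrays r was -0.608 (permutation p = 0.0371, unadjusted), a value that also holds the difference between lines. The pooled r was -0.416 without the 2 farthest arrays and -0.329 after group means were taken out.

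**Figure D4:**
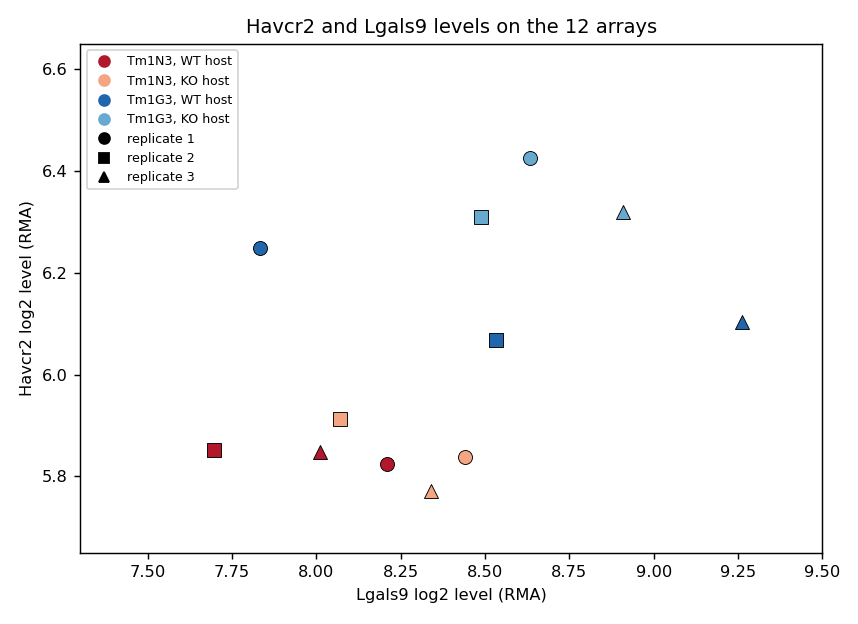
Havcr2 level (vertical axis, log2 intensity) against Lgals9 level (horizontal axis, log2 intensity), 1 point per array, coloured by group. Havcr2 spans 5.77 to 5.91 over the Tm1N3 arrays and 6.07 to 6.43 over the Tm1G3 arrays, with no relation to Lgals9 that passed a test within either line.

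The host's genotype moved none of the 10 members past the threshold. In Tm1N3 tumours limma called 0 members and 0% of all probe sets, and at an unadjusted p under 0.05 there was 1 member against 4.33% of the array. That gene was Lgals2, at 5.27, 5.10 and 5.24 in wild-type and 5.46, 5.41 and 5.36 in knockout mice, a difference of 0.21 ± 0.08 (SE, limma adjusted p = 1). It was also the 1 member whose hosts did not overlap there, as happened for 7.62% of all probe sets. Havcr2 differed by -0.00 ± 0.07. Lgals9 differed by 0.31 ± 0.29, and between same-numbered arrays by 0.23, 0.38 and 0.33, higher in the knockout host each time. With the replicate block its limma adjusted p was 1 (fixed) or 0.877 (random).

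In Tm1G3 tumours limma again called 0 members and 0% of all probe sets, with 1 member at an unadjusted p under 0.05 against 6.18%. That member was Havcr2, higher in knockout mice by 0.21 ± 0.07 (SE, limma adjusted p = 0.752). Its limma adjusted p was 0.533 to 0.984 with each array left out and 0.379 to 0.87 under the other alternatives, which include the replicate block. Hosts did not overlap for 3 members, Havcr2 and Lgals7, which lay higher in knockout mice, and Lgalsl, which lay lower, where the same held for 12.4% of all probe sets. Lgals7 differed by 0.30 ± 0.21 and Lgalsl by -0.20 ± 0.13. Between same-numbered arrays Havcr2 differed by 0.18, 0.24 and 0.22 and Lgals9 by 0.80, -0.04 and -0.35, so that Lgals9 kept no one direction here.

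Averaged over lines, limma called 0 members and 0% of all probe sets for the host, and 2 members had an unadjusted p under 0.05 where 6.26% of the array did. They were Lgals7 at 0.35 ± 0.15 (SE, limma adjusted p = 0.749) and Havcr2 at 0.10 ± 0.05 (limma adjusted p = 0.749). For the interaction of line and host, limma called 0 members and 0% of probe sets, and 2 members, Havcr2 and Lgals2, had an unadjusted p under 0.05 against 2.81%. The interaction of Lgals2 was 0.26 ± 0.11 (SE, limma adjusted p = 0.996).

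**Figure D5:**
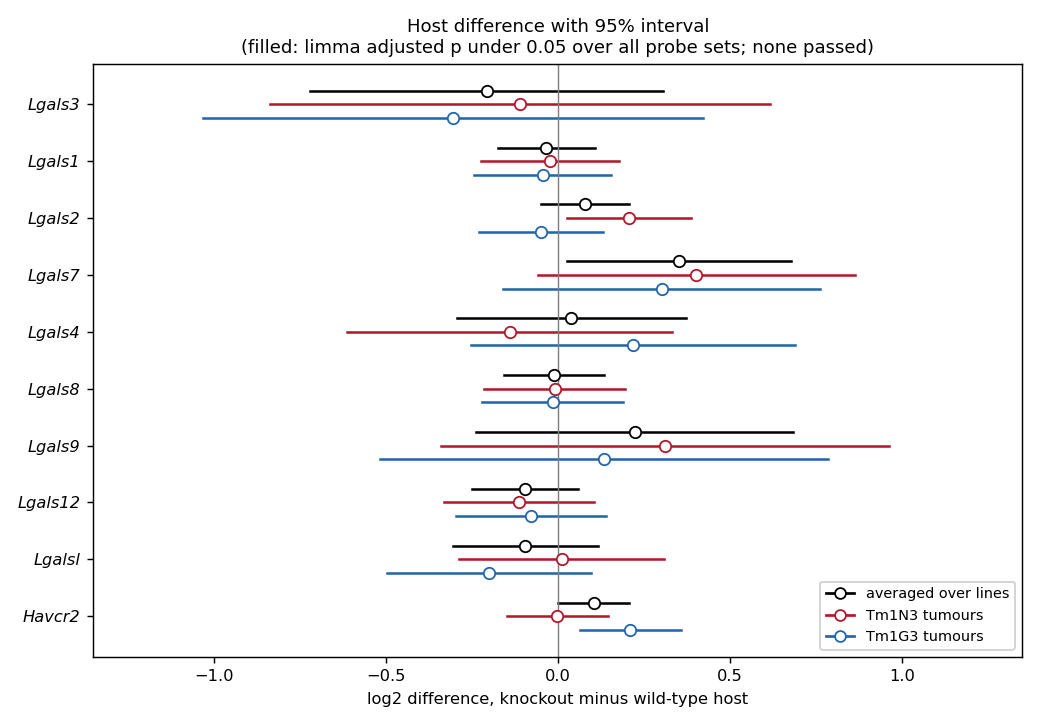
Log2 difference between knockout and wild-type mice (horizontal axis, log2 units) for each of the 10 members, averaged over lines and in Tm1N3 and Tm1G3 tumours, with 95% intervals from limma. The intervals of Lgals2 in Tm1N3 tumours, of Havcr2 in Tm1G3 tumours and of Lgals7 and Havcr2 averaged over lines exclude 0. None of the differences passed after adjustment over 1246 probe sets.

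Genes that make or carry the sugars galectins bind were measured on the same arrays. Of 29 counter-receptors 11 were named, among them Lamp1, Lamp2 and Cd44, and 2 were higher in Tm1N3 tumours averaged over hosts. These were Tgfbr1, the type I receptor of TGF-beta, at 0.46 ± 0.10 (SE, limma adjusted p = 0.0235), and Mcam, the melanoma cell adhesion molecule given above. Neither call held throughout: leaving out 1 array ended that of Tgfbr1 for 5 of the 12 arrays (limma adjusted p up to 0.0732) and that of Mcam for 9 (up to 0.0913), and without the Tm1N3 arrays numbered 3 both lost it (0.0593 and 0.0886). The other 9 did not pass, and the list's median was -0.0034 against 0.0027 over all probe sets.

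Of 14 genes of N-glycan branching 10 were named, and the 1 called was Mgat3, which adds the bisecting N-acetylglucosamine, lower in Tm1N3 tumours by -0.40 ± 0.06 (SE, limma adjusted p = 0.00379). Mgat2, which starts the second antenna, differed by 0.30 ± 0.10 and Man2a1, a Golgi mannosidase, by 0.23 ± 0.08 without passing (limma adjusted p = 0.135 and 0.139). The median was 0.04. Of 20 genes that build N-acetyllactosamine chains 17 were named, and 2 were lower, the galactosyltransferase B4galt4 (-0.57 ± 0.11, limma adjusted p = 0.013) and the N-acetylglucosaminyltransferase B3gnt3 (-0.27 ± 0.06, limma adjusted p = 0.0299). B4galt4, like Mgat3, was called without any 1 of the 12 arrays, whereas B3gnt3 lost its call for 7 of them (limma adjusted p up to 0.0821) and with the random replicate block (0.0756). The other 15 did not pass, with B4galt5 at 0.24 ± 0.08 (adjusted p = 0.149).

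Of 8 sialyltransferases that cap galactose 7 were named, and St3gal3 was lower at -0.41 ± 0.09 (SE, limma adjusted p = 0.0235), a call that ended without any 1 of 5 arrays (up to 0.0732) and under repeated quantile normalization (0.0756). St6gal1, whose alpha-2,6 cap blocks binding by several galectins, differed by -0.47 ± 0.12 and fell just short (limma adjusted p = 0.0552), and St3gal4 differed by -0.19 ± 0.07 (adjusted p = 0.149). The median over the 7 was -0.13. In the host comparisons 0 genes of any of these lists were called by limma, as was true of the array as a whole.

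The genes whose level followed each member most closely over the 12 arrays were taken by Pearson's r, as a description of arrays that share line and host. For Havcr2 they were Il17rd (0.925), Il17rc (0.924) and Frem1 (0.906), and once group means were taken out these fell to 0.467, 0.372 and 0.446. For Lgalsl they were St6galnac6 (0.963), Igf2bp3 (0.956) and Lta4h (0.934), which kept 0.854, 0.919 and 0.779 within groups. For Lgals7 they were Tsnax (0.920), Slc35f4 (0.878) and Gps2 (0.849), with 0.833, 0.880 and 0.877 within groups.

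For Lgals9 the nearest genes were Bcan (0.867), Abhd17a (0.841) and Ddb1 (0.836), and 0.811, 0.730 and 0.916 within groups. For Lgals3 they were Egfr (0.806), Csgalnact1 (0.795) and Il1rl1 (0.732), and 0.805, 0.795 and 0.775 within groups. For Lgals1 they were Atox1 (0.832), Lta4h (0.794) and Naxe (0.775), and 0.740, 0.659 and 0.674 within groups. Among the members themselves, Lgals7 and Lgalsl lay opposite across all arrays at -0.455 and together within groups at 0.892, while Lgals1 and Lgals4 were opposite in both, at -0.849 and -0.828. Tm1N3 tumours of knockout mice weigh most on the 0.892, with SDs of 0.52 for Lgals7 and 0.30 for Lgalsl. In the other groups these SDs were at most 0.14 and 0.18. None of the within-group values given for these genes and their neighbours was computed without that group.

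Over the 12 arrays the SD was 0.47 for Lgals3, 0.45 for Lgals7, 0.45 for Lgals9, 0.32 for Lgalsl, 0.31 for Lgals4 and 0.23 for Havcr2, and 0.12 for Lgals1, Lgals2, Lgals8 and Lgals12, where the median over all probe sets was 0.1286. Havcr2, which separated the lines most clearly, thus varied less over the arrays than 5 of the 9 galectin genes.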

How the data were processed

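Total RNA of the tumours was extracted with Trizol and labelled as biotinylated cRNA, per the labels' protocols. The log2 values were used as the authors deposited them, and RMA is the only step that the submitters' processing notes name. The array's design and build are not given in the sources used here, and no scanner files were used, so signal over background was not examined. Probe sets were named by RefSeq accession through a table for GRCm38.p6: 963 of 1246 matched 1 symbol, 5 of the 10 members carry a suffix for shared probes, and no column of unknown sample was found.

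The log2 values of the 12 arrays were modelled by their 4 group means (limma 3.58.1, R 4.3.3; lmFit, then eBayes), which left 8 residual and gave 2.39 prior degrees of freedom, and the line, host and interaction comparisons were drawn from that fit. Errors are SD for group levels and moderated SE for differences. Permutation tests were run by code written for the purpose, with ranks from scipy 1.17.1. The code was tested on simulated data.

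Members, gene lists, tests and alternatives were chosen with earlier results of these data known. Named genes are the 10 members, and the genes of a list past the threshold in the averaged line comparison or otherwise the 3 of smallest p. The 3 most correlated genes were named for Lgals1, Lgals3, Lgals7, Lgals9, Lgalsl and Havcr2. Havcr1, Timd4, Timd2, Mgat2, Man2a1, B4galt5, St6gal1, St3gal4, Cd2, Adgre1 and Cx3cr1 were added after their values were seen. Replicate numbers come from the labels. Deviations of same-numbered arrays from their group means correlated at 0.1836 to 0.7525 between hosts in Tm1N3 and at 0.2491 to 0.3081 in Tm1G3 tumours. The labels state no pairing and differently numbered arrays were not compared, so whether the numbers pair hosts within a line is not known. Between lines the correlations lay at 0.008085 to 0.5443 for wild-type mice and -0.6597 to 0.2725 for knockout mice, and no pairing was assumed there. Alternatives were repeated quantile normalization, median centring, the replicate block, a fit on the compared groups alone, no dim probe sets, trended and robust eBayes, each array left out, and the Tm1N3 arrays numbered 3 left out.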

Additional observations from a re-analysis of the deposited data

How the results depend on the processing

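Havcr2 stayed past the threshold in the averaged line comparison under every alternative run, and Lgalsl under all but repeated quantile normalization, which left 1 member called there. With only the 2 groups in the fit, 1 member passed in wild-type mice (Lgalsl, adjusted p = 0.0207) and 0 in knockout mice, where the spread is estimated from 6 arrays. Without the Tm1N3 arrays numbered 3, chosen after seeing the data, 2 passed in knockout mice (Lgals7 and Havcr2). With each array left out in turn, 0 to 2 passed in wild-type and 1 to 2 in knockout mice. The share of all probe sets called in the 2-group fits and with arrays left out is not given here. Whether these counts moved with the calls of the whole array can therefore not be told. The replicate block, fixed or random within a line, ended the call of Lgals7 (adjusted p = 0.0593 and 0.075) and changed no other call of a member. Alternatives over the other probe sets of a member could not be run, since each has 1.

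Differences near 0 changed sign, and the cause was not tested. Repeated quantile normalization gave -0.0075 for Lgals12 between lines in knockout mice, and -0.03 for Lgalsl and 0.044 for Havcr2 between hosts in Tm1N3 tumours. It gave Lgals9 and Havcr2 an r of 0.053 in Tm1G3 tumours. Median centring gave host differences of 0.0194 for Havcr2 and 0.0116 for Lgals8 in Tm1N3, and 0.0013 for Lgals8 in Tm1G3 tumours. Without the Tm1N3 arrays numbered 3, host differences in Tm1N3 tumours were 0.0341 for Lgals1, 0.012 for Lgals8 and 0.037 for Havcr2.

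With each array left out in turn, line differences of Lgals12 ran from -0.0208 to 0.0722 averaged, -0.062 to 0.124 for wild-type mice and -0.0332 to 0.0712 for knockout mice, and that of Lgals4 in knockout mice from -0.0117 to 0.2867. Host differences in Tm1N3 tumours ran from -0.0881 to 0.0326 for Lgals1, -0.4547 to 0.1491 for Lgals3, -0.2667 to 0.1011 for Lgals4, -0.0826 to 0.0529 for Lgals8, -0.1809 to 0.0051 for Lgals12, -0.109 to 0.1766 for Lgalsl and -0.0369 to 0.0333 for Havcr2. In Tm1G3 tumours they ran from -0.0996 to 0.0329 for Lgals1, -0.089 to 0.0452 for Lgals8 and -0.2194 to 0.4942 for Lgals9, and r between Lgals9 and Havcr2 from -0.3204 to 0.2303. With 3 arrays a group, the number of arrays limits the precision, and dim genes such as Lgals12 may lie near background.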
